A study of Mus musculus with 6 samples.

Results

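The 78 genes described here encode proteins of the mitochondrial ribosome. They are the protein-coding rows, of 78409 rows in all, whose symbol is Mrpl or Mrps followed by a number. By their place in the ribosome 51 belong to the large subunit and 26 to the small subunit. Mrps30 and Mrps18a are among the 51, because their products sit in the large subunit despite their names. The remaining member, Mrps36, carries a mitoribosomal name, but its product is now known as a component of the oxoglutarate dehydrogenase complex. RNA of hearts of mice aged 11 months was sequenced after reverse transcription from anchored oligo(dT) primers. In 3 of them Ybx1, the gene of an RNA- and DNA-binding Y-box protein, had been deleted in cardiomyocytes, and 3 littermates served as controls. The comparison asks which heart transcripts differ at that age when cardiomyocytes lack Ybx1. The labels call the deletion cardiomyocyte-specific and call the other mice Control. Strain, sex, heart chamber, Cre driver, the deleted allele and whether the controls carry Cre or that allele are not given in the sources used here.

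Mitochondria keep their own ribosome, which translates the few mRNAs encoded by mitochondrial DNA, all of them for membrane subunits of the respiratory chain and of ATP synthase. Its rRNAs come from mitochondrial DNA, whereas all of its proteins are encoded in the nucleus, made in the cytosol and imported. About as many of these proteins are particular to mitochondria as are homologues of bacterial ribosomal proteins. Heart muscle has a very high density of mitochondria, and in humans inherited defects of several mitoribosomal proteins cause cardiomyopathy.

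Library totals ran from 12270796 to 15141525 counts, and a member had between 33 and 2969 counts in a library. Levels are given as normalised CPM, which are counts scaled to library size and then by TMM factors between libraries, and a log2 fold change compares knockout with control. Ybx1 itself was at 851, 813 and 898 CPM across control hearts 1, 2 and 3, against 203, 172 and 110.02 CPM across knockout hearts 1, 2 and 3, lower in every knockout heart. Its log2 fold change of -2.40 (95% interval -3.01 to -1.79) had an edgeR adjusted p of 0.148, so the deleted gene itself did not pass that test, while DESeq2 called it. The summed level of 10 cardiomyocyte markers ran from 25772 to 30206 CPM over the controls and from 21147 to 27515 CPM over the knockouts. Of these 10, 4 had fold changes above 0 and 6 below it, from -0.83 to 0.69 on the log2 scale. All knockout values lay below all control values in 3 (5.82% of all tested genes). At an unadjusted edgeR p below 0.05, 2 were lower in knockout (2.45% of all tested genes). Without knockout library 3 these counts were 3 and 0, against 1173 and 264 of 13717 tested genes. Knockout library 3 stood apart. Mitochondrial rRNA took 10.7% of its counts and 20.5% to 26.3% in the other 5, and the nuclear RNA Malat1 was at 562 CPM in it and at 3196 to 9860 CPM in the others. The main summaries are therefore given with and without this library.

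The promoters are shown first, because the members share a role but not a position in the genome. Promoter windows from RefSeq (build GRCm38.p6, from 250 bases before to 50 bases after the annotated start) matched 69 of the 78 genes by symbol, in 75 windows on 16 chromosomes. Each window was searched on both strands. The ETS motif CCGGAAG, bound by GABPA among other factors, was in 26 of the 75 windows (34.7%), in 17.3% of the 11616 windows of tested protein-coding genes and in 8.86% of all 32851 windows. For the NRF1 motif, GCGCA and GCGC with any 1 base between them, the shares were 17.3%, 9.83% and 4.60%, and for the YY1 motif AAGATGGCG they were 10.7%, 3.02% and 1.40%. GABPA, NRF1 and YY1 are transcription factors known for their part in nuclear genes of mitochondria. The sequence ATTGG, an inverted CCAAT box and the core of the Y-box for which the YBX1 family is named, was in 40% of the member windows and 37.001% of those of tested protein-coding genes, and the TATA box TATAAA in 6.67% and 7.25%. A start of another gene on the opposite strand lay within 500 bases upstream in 25 member windows (33.3%) and in 15.2% of those of tested protein-coding genes. The other motifs searched were the GC box GGGCGG, the E-box CACGTG and the ERR half-site TNAAGGTCA, with N for any base. The GC box was in 52% of the member windows and 63.0% of those of tested protein-coding genes. The E-box was in 9.33% and 9.87%, and the ERR half-site in 0% and 0.689%. These shares describe the windows and were not tested, and a match is not a site of binding.

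The windows of 4 genes are printed, those of Mrps10, Mrpl36 and Mrpl53, which had the highest fold changes of the members, and that of Mrps11, which starts 42 bases from the oppositely oriented member Mrpl46. Capitals mark matches to the ETS, NRF1, YY1 and inverted CCAAT motifs on either strand, and positions count from the start site. Mrps10 has ATTGG from -81, Mrpl36 has CCAAT from -247 and the reverse of the YY1 motif from -31, and Mrpl53 has ETS matches from -59 and -16 with CCAAT from -43 between them. Mrps11 has the reverse of the YY1 motif from -108. No NRF1 match lies in these windows. They span chr17:47368947-47369246, plus strand, for Mrps10, chr13:73330759-73331058, plus strand, for Mrpl36, chr6:83108858-83109157, plus strand, for Mrpl53, and chr7:78782881-78783180, plus strand, for Mrps11.
Mrps10: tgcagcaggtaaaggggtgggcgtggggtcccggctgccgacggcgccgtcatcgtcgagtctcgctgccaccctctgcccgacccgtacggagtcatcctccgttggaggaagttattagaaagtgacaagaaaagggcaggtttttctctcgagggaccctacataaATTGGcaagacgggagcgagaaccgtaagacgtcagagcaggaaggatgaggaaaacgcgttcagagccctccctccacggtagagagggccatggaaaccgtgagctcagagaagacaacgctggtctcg
Mrpl36: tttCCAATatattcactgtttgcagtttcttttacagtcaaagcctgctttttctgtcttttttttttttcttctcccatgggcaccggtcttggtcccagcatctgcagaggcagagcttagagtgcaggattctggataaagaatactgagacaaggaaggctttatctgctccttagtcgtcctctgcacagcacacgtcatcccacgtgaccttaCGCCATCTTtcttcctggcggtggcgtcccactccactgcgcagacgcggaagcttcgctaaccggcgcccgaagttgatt
Mrpl53: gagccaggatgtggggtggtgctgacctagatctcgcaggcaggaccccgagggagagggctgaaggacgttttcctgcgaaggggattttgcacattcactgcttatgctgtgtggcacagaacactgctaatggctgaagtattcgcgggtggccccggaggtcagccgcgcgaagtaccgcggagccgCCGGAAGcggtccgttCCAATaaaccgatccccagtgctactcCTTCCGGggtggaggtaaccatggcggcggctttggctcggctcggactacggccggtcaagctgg
Mrps11: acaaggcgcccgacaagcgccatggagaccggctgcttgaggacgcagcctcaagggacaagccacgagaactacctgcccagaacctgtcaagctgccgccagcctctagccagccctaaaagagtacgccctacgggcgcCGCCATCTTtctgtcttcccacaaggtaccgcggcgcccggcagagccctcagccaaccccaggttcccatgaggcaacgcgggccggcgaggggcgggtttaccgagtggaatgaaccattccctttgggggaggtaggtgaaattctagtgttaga

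All 78 members were expressed, and their summed level overlapped between the genotypes while differing from heart to heart. Their summed level was 2220, 2012 and 2660 CPM across control hearts 1, 2 and 3, against 1930, 2746 and 3144 CPM in knockout hearts 1, 2 and 3. Knockout heart 1 was thus the lowest of the 6 and knockout heart 3 the highest, and the groups overlapped. The means were 2297 ± 331 and 2607 ± 619 CPM (SD, n = 3 each), a ratio of 1.13, and of 1.02 without knockout heart 3. Among markers of other cells, the sum of 6 macrophage markers was 55.3 to 67.6 CPM in the controls and 69.6 to 75.2 CPM in the knockouts. Of these 6, 5 had fold changes above 0 and 1 below it, and 1 had no overlap between the groups. The other sums overlapped. They were 1449 to 1821 and 1758 to 2349 CPM for 8 fibroblast markers, and 283 to 360 and 211 to 434 CPM for 6 endothelial markers. For 6 smooth muscle and pericyte markers they were 521 to 643 and 418 to 704 CPM. For 5 erythroid markers they were 3042 to 4716 and 3562 to 6850 CPM, and for 5 atrial markers 124 to 385 and 94.5 to 309 CPM. Gene by gene, all 8 fibroblast and all 5 erythroid markers had fold changes above 0, where 51.1% of all tested genes did. Below 0 were 5 of 6 smooth muscle and pericyte markers, 3 of 6 endothelial markers and 2 of 4 tested atrial markers. With knockout library 3 left out, 6 fibroblast and 5 erythroid markers lay above 0, and 3 smooth muscle and pericyte markers below it. Of 6 lymphocyte markers 0 passed the filter on low values. The part of cell composition in the members' levels was not tested. In RNA of hearts, fewer cells of a type and less RNA per cell cannot be told apart.

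Measured gene by gene as log2(CPM + 0.5) against the control mean, the median member stood at -0.024, -0.19 and 0.22 across control hearts 1, 2 and 3, and at -0.16, 0.29 and 0.52 across knockout hearts 1, 2 and 3. The median of all 13717 tested genes lay between -0.0073 and 0.0028 in each heart. Of the 78 members 6 were above the control mean in control heart 2 and 74 in control heart 3, so the control hearts differed among themselves. In knockout hearts 1, 2 and 3 the number was 19, 72 and 66. Being above in knockout hearts 2 and 3 but below in knockout heart 1 was the pattern of 46 members (59%) and of 15.1% of all tested genes. In all 3 knockout hearts 17 members were above it and 2 below it, counts for which the share of all tested genes was not taken. Knockout heart 3 held the highest value of 51 members, and control heart 2 and knockout heart 1 held the lowest value of 39 and 29. Over all tested genes knockout heart 3 was highest in 33.9% and lowest in 34.3%, control heart 2 was lowest in 25.2% and knockout heart 1 in 15.4%.

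**Figure D1:**
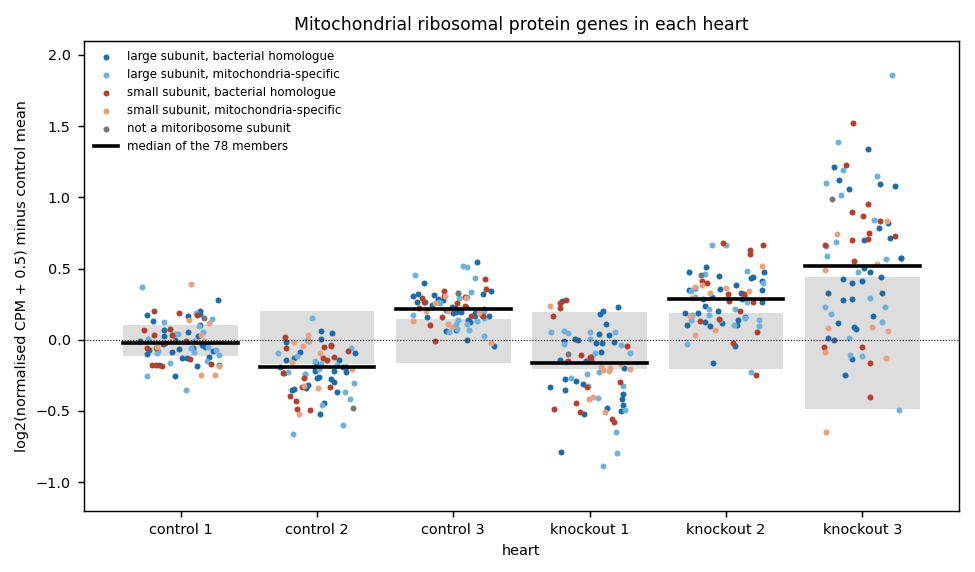
Difference of each of the 78 members from its control mean, as log2(normalised CPM + 0.5), in each heart (points, coloured by role), with the median of the members (black bar) and the interquartile range of all tested genes (grey). The medians of the members are -0.16, 0.29 and 0.52 in knockout hearts 1, 2 and 3, and the points spread widest in knockout heart 3.

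No member passed edgeR's quasi-likelihood test adjusted over all tested genes, where 0 of 13717 genes passed (0%) and the lowest adjusted p of a member was 0.694. DESeq2 called 15 of the 13717 genes (0.109%), none of them a member (lowest adjusted p 0.82). At an unadjusted edgeR p below 0.05 there were 4 members (5.13%), all higher in knockout, against 5.14% of all tested genes in either direction and 2.69% in the higher direction. No knockout value overlapped the controls, all being higher, in 4 members, Mrpl1, Mrpl21, Mrps10 and Mrps33, and in 6.26% of all tested genes. All were lower in 0 members and in 5.82% of all tested genes. The 4 members are 5.13% of the 78, near the share of all genes.

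Of the 78 members 62 (79.5%) had a log2 fold change above 0, with a median of 0.21 and a range of -0.36 to 1.01, where 51.1% of all tested genes lay above 0 and the median was 0.011. With library sizes as the only scaling 73 members lay above 0, but the median of all genes then stood at 0.17. With knockout library 3 left out the count was 44 of 78 (56.4%) and the median 0.033, where 48.5% of all genes lay above 0 and the median was -0.0081. Without knockout library 1, which had the lowest summed level, the count was 70 and the median 0.41. Without control library 2, the count was 51 and the median 0.11. With all 6 libraries the 95% interval of 53 members (67.9%) lay within 1 log2 unit on either side of 0, as did that of 63.5% of all genes. With 3 hearts in each group, an estimate smaller than the distance from it to its interval's end did not pass even before adjustment. The test adjusted over all genes needed larger changes relative to that distance. Ybx1, at -2.40 (95% interval -3.01 to -1.79), had an edgeR adjusted p of 0.148 and did not pass it. The intervals therefore do not give the smallest change that the adjusted test could detect, which was not estimated.

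**Figure D2:**
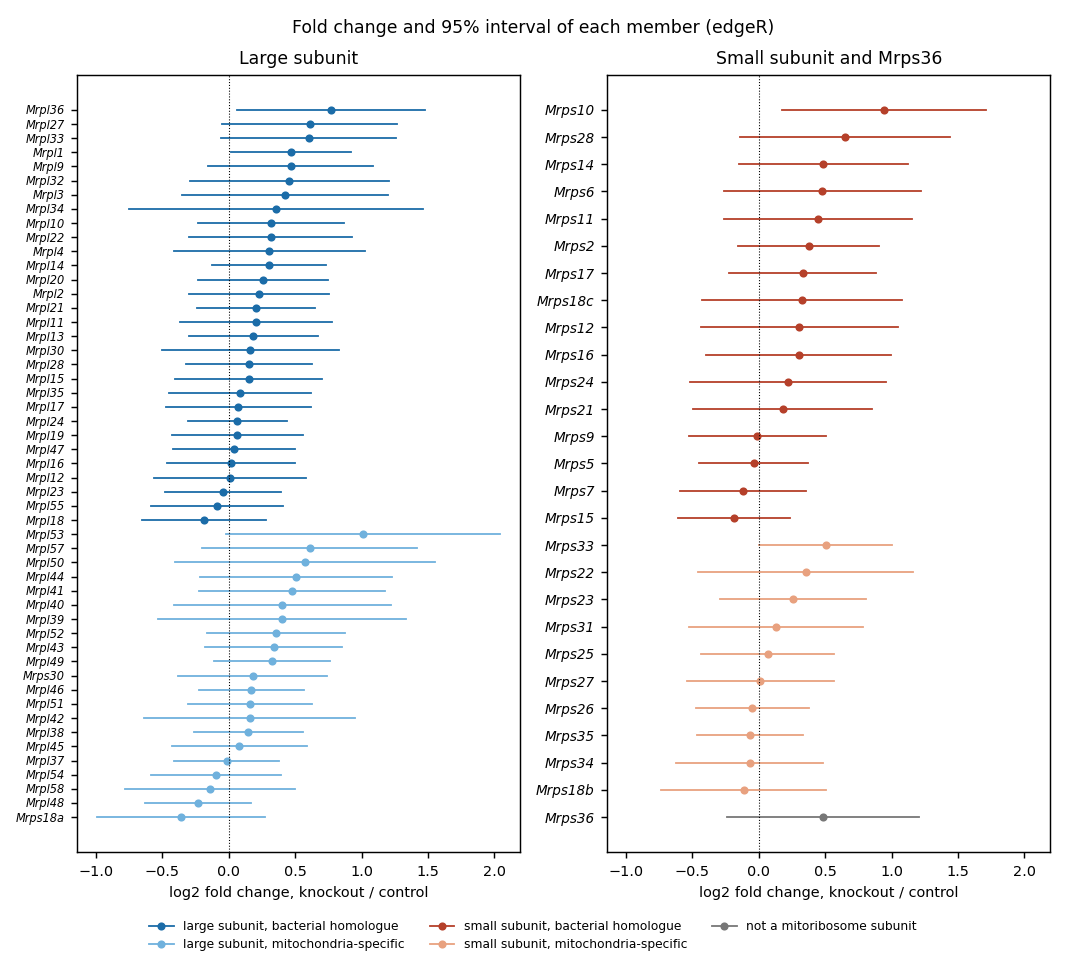
Log2 fold change (point) and 95% interval (line) of each of the 78 members, knockout relative to control, from edgeR, ordered by role and fold change. The points run from -0.36 for Mrps18a to 1.01 for Mrpl53, and the intervals of Mrps10, Mrpl36, Mrpl1 and Mrps33 lie above 0.

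Both subunits had medians above 0. The 51 large-subunit members had a median of 0.21 with 43 above 0, and the 26 small-subunit members 0.24 with 18 above 0. With knockout library 3 left out the medians were 0.036 and 0.016. By origin, the 30 large-subunit homologues of bacterial proteins had a median of 0.21, the 21 large-subunit proteins particular to mitochondria 0.18, the 16 small-subunit homologues 0.32 and the 10 small-subunit proteins particular to mitochondria 0.040. With knockout library 3 left out these medians were 0.034, 0.036, 0.049 and -0.022 in the same order, the last one with its sign turned. The ratio of the summed small-subunit to the summed large-subunit level, which does not depend on the scaling between libraries, was 0.468, 0.496 and 0.476 across control hearts 1, 2 and 3, against 0.466, 0.482 and 0.449 in knockout hearts 1, 2 and 3. Its means were 0.480 ± 0.0145 and 0.466 ± 0.0169 (SD, n = 3 each), a difference smaller than either spread.

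Among large-subunit homologues of bacterial proteins, Mrpl36 had the highest fold change. Its product is the zinc-binding homologue of bacterial L36, one of the smallest proteins of the ribosome. Mrpl36 was at 14.5, 11.1 and 16.8 CPM across control hearts 1, 2 and 3, against 16.4, 20.1 and 35.97 CPM across knockout hearts 1, 2 and 3. Knockout heart 1 lay within the control values and knockout hearts 2 and 3 above them. The log2 fold change of 0.77 (95% interval 0.066 to 1.48) had an unadjusted edgeR p of 0.0354, and was 0.36 with knockout library 3 left out. Mrpl1, whose product forms the stalk that is named for it and that guides spent tRNA out of the ribosome, was at 12.5, 9.98 and 10.6 CPM across control hearts 1, 2 and 3, against 13.3, 14.2 and 18.2 CPM across knockout hearts 1, 2 and 3. Every knockout value was above every control value, with a log2 fold change of 0.47 (95% interval 0.018 to 0.92) at an unadjusted edgeR p of 0.0433. It was 0.32 on the log2 scale with knockout library 3 left out.

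Mrpl27, the homologue of the bacterial protein that reaches toward the peptidyl transferase centre, was at 9.22, 7.95 and 12.1 CPM across control hearts 1, 2 and 3, against 10.4, 13.2 and 21.1 CPM across knockout hearts 1, 2 and 3. Its values overlapped between the groups, and the log2 fold change of 0.61 (95% interval -0.051 to 1.27) had an unadjusted edgeR p of 0.0663. With knockout library 3 left out that fold change was 0.27. Mrpl33, the homologue of bacterial L33, was at 28.9, 24.3 and 32.4 CPM across control hearts 1, 2 and 3, against 28.1, 39.6 and 62.2 CPM across knockout hearts 1, 2 and 3, again with knockout heart 1 among the controls and knockout heart 3 farthest above them (0.60 as log2 fold change, and 0.25 with that library left out). Mrpl21, the homologue of bacterial L21, at 39.1, 27.3 and 39.3 CPM across control hearts 1, 2 and 3, against 40.1, 39.7 and 42.3 CPM across knockout hearts 1, 2 and 3, had knockout values that all lay above the controls, by a small margin (0.21 as log2 fold change, interval -0.24 to 0.65). It is named here for that count, after its values were seen.

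The genes of the stalk that recruits translation factors had log2 fold changes of 0.013 to 0.32, with intervals that span 0. Mrpl12, the homologue of bacterial L7/L12 that makes up the tip of that stalk, was at 50.5, 52.1 and 64.1 CPM across control hearts 1, 2 and 3, against 38.9, 73.7 and 55.7 CPM across knockout hearts 1, 2 and 3. Its log2 fold change of 0.013 (95% interval -0.56 to 0.58) depended in sign on the library left out, being -0.25 at the lowest and 0.22 at the highest. Mrpl10, which anchors Mrpl12 to the ribosome, averaged 11.995 ± 3.17 CPM over the controls and 14.98 ± 2.82 CPM over the knockouts (SD, n = 3 each; 0.32 as log2 fold change, interval -0.23 to 0.87). Mrpl11, at the base of the stalk, averaged 28.4 ± 3.53 CPM over the controls and 32.7 ± 9.86 CPM over the knockouts (0.21 as log2 fold change, interval -0.37 to 0.78, and 0.028 with knockout library 3 left out). For each of these 3 genes the values of the groups overlapped.

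Mrpl53, a large-subunit protein particular to mitochondria, had the highest fold change of all members. Its level was 29.9, 25.6 and 47.8 CPM across control hearts 1, 2 and 3, against 33.3, 52.9 and 122 CPM across knockout hearts 1, 2 and 3. The value of knockout heart 3 was far above all others, and knockout heart 1 lay within the control range. The log2 fold change of 1.01 (95% interval -0.023 to 2.04) had an unadjusted edgeR p of 0.0542, and was 0.32 with knockout library 3 left out. In the GENCODE M21 annotation most of its exon sequence is shared with the same-strand locus Gm42688, so its level is uncertain. Mrpl57, also particular to mitochondria, averaged 10.5 ± 3.77 CPM over the controls and 16.1 ± 6.74 CPM over the knockouts (SD, n = 3 each; 0.61 as log2 fold change, and 0.22 with knockout library 3 left out). Mrpl34, the homologue of bacterial L34, and Mrpl39, particular to mitochondria, were the members with the widest relative spread among control hearts (SD over mean), 38.3% and 36.1%. The log2 fold change of Mrpl34 reversed from 0.36 with all libraries to -0.36 with knockout library 3 left out, and that of Mrpl39 from 0.40 to -0.16.

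Other large-subunit proteins particular to mitochondria have known functions at the membrane or in rescue. Mrpl45, which holds the ribosome to the inner membrane at the exit of the nascent chain, was at 38.8, 34.2 and 50.02 CPM across control hearts 1, 2 and 3, against 34.2, 50.1 and 46.03 CPM across knockout hearts 1, 2 and 3, with overlap between the groups (0.082 as log2 fold change, interval -0.42 to 0.59). Mrpl58, which hydrolyses peptidyl-tRNA and can free stalled ribosomes, was at 21.4, 19.7 and 23.02 CPM across control hearts 1, 2 and 3, against 11.3, 23.5 and 23.3 CPM across knockout hearts 1, 2 and 3. Knockout heart 1 was low and the other 2 were close to the controls (-0.14 as log2 fold change, interval -0.78 to 0.50). Mrps30 averaged 15.8 ± 3.49 CPM over the controls and 17.9 ± 4.62 CPM over the knockouts (SD, n = 3 each; 0.18 as log2 fold change, and -0.057 with knockout library 3 left out). Mrpl48, with a log2 fold change of -0.23 (95% interval -0.63 to 0.17), was among the 3 members of lowest fold change, at 27.02, 22.3 and 26.5 CPM over control and 19.98, 21.4 and 23.2 CPM in knockout hearts 1, 2 and 3. With knockout library 3 left out both of its remaining knockout values lay below all control values. That held for 1 of the 78 members and for 1173 of 13717 tested genes.

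In the small subunit, Mrps10 had the smallest unadjusted p of all members. Its product is the homologue of bacterial S10, a protein of the head of the small subunit. Mrps10 was at 7.44, 5.91 and 8.62 CPM across control hearts 1, 2 and 3, against 8.77, 11.8 and 21.8 CPM across knockout hearts 1, 2 and 3. All knockout values were above all control values, knockout heart 1 barely so. Mrps10 averaged 7.33 ± 1.36 CPM over the controls and 14.1 ± 6.82 CPM over the knockouts (SD, n = 3 each), with a log2 fold change of 0.94 (95% interval 0.18 to 1.71) and an unadjusted edgeR p of 0.0214. The log2 fold change was 0.48 with knockout library 3 left out. Mrps33, a small-subunit protein particular to mitochondria, was at 16.99, 12.2 and 17.6 CPM across control hearts 1, 2 and 3, against 18.2, 22.3 and 26.1 CPM across knockout hearts 1, 2 and 3, with no overlap between the groups. Its log2 fold change of 0.51 (95% interval 0.0056 to 1.01) had an unadjusted edgeR p of 0.0480, and was 0.37 with knockout library 3 left out. Mrps28, placed as the counterpart of bacterial S1, was at 20.9, 13.4 and 21.4 CPM across control hearts 1, 2 and 3, against 16.4, 27.8 and 43.3 CPM across knockout hearts 1, 2 and 3, with knockout heart 1 inside the control range (0.65 as log2 fold change, and 0.24 with knockout library 3 left out).

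Mrps15, the homologue of bacterial S15, had a fold change below 0. It was at 41.2, 37.97 and 47.03 CPM across control hearts 1, 2 and 3, against 37.9, 41.3 and 31.6 CPM across knockout hearts 1, 2 and 3, and knockout heart 3 was its lowest value (-0.19 as log2 fold change, interval -0.61 to 0.23). Mrps5, the homologue of bacterial S5, was steady among control hearts, at 4.54% relative spread, and averaged 28.9 ± 1.31 CPM over the controls and 28.2 ± 4.11 CPM over the knockouts (SD, n = 3 each; -0.036 as log2 fold change, and 0.13 with library sizes as the only scaling). The large-subunit gene Mrpl24 was likewise steady, at 51.3, 50.999 and 54.7 CPM over control and 51.4, 56.2 and 56.9 CPM over knockout hearts 1, 2 and 3 (0.067 as log2 fold change, interval -0.30 to 0.44). Over the 78 members the relative spread among control hearts had a median of 17.7%, and over all tested genes 16.6%. Among knockout hearts the medians were 26.1% and 24.1%.

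The 3 paralogues of ribosomal protein S18 did not follow one pattern. The product of Mrps18a sits in the large subunit, and those of Mrps18b and Mrps18c at separate places in the small subunit. Mrps18a was at 27.3, 39.1 and 40.5 CPM across control hearts 1, 2 and 3, against 20.05, 38.7 and 24.7 CPM across knockout hearts 1, 2 and 3. It had the lowest fold change of the members (-0.36 as log2 fold change, interval -0.99 to 0.27), yet knockout heart 2 was as high as the controls. Mrps18b was at 8.41, 8.68 and 8.36 CPM across control hearts 1, 2 and 3, against 7.34, 11.1 and 5.23 CPM across knockout hearts 1, 2 and 3. The control values were nearly equal, while knockout heart 2 lay above and knockout hearts 1 and 3 below them (-0.11 as log2 fold change, interval -0.73 to 0.51). Mrps18c was at 22.3, 22.5 and 29.7 CPM across control hearts 1, 2 and 3, against 17.4, 29.7 and 46.4 CPM across knockout hearts 1, 2 and 3, the opposite order of Mrps18b between knockout hearts 1 and 3 (0.33 as log2 fold change, and -0.082 with knockout library 3 left out). In knockout heart 3 Mrps18b and Mrps18a were the 2 members farthest below their control means, at -0.65 and -0.50 on the log2 scale, and Mrps18c was 0.90 above its own.

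**Figure D3:**
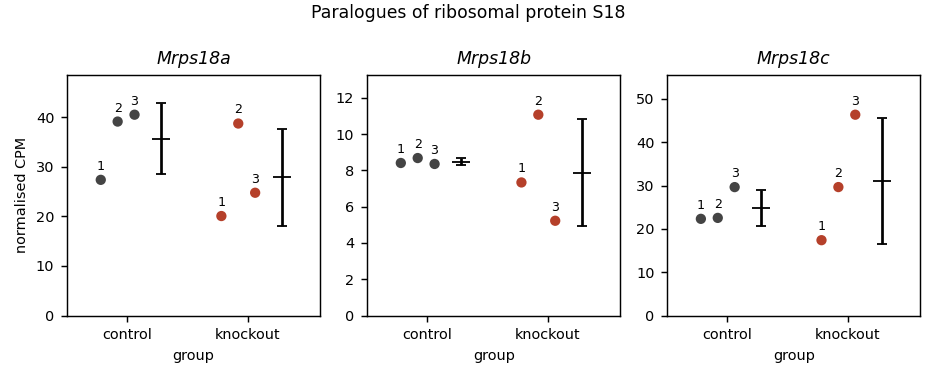
Normalised CPM of the paralogues Mrps18a, Mrps18b and Mrps18c in each heart (points, labelled with the heart number), with mean and SD of each group of 3 hearts (bars) and the axis starting at 0. Control values of Mrps18b run from 8.36 to 8.68 CPM and knockout values from 5.23 to 11.1 CPM.

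The members whose human counterparts are known in inherited cardiomyopathy gave overlapping groups. Mrpl3, near the catalytic centre of the large subunit, was at 40.8, 30.3 and 47.6 CPM across control hearts 1, 2 and 3, against 31.7, 45.97 and 81.5 CPM across knockout hearts 1, 2 and 3. Its log2 fold change was 0.42 (interval -0.35 to 1.20) and -0.028 with knockout library 3 left out. Mrpl44, a large-subunit protein related to RNA-cleaving enzymes, was at 16.1, 14.5 and 21.8 CPM across control hearts 1, 2 and 3, against 16.8, 20.03 and 37.5 CPM across knockout hearts 1, 2 and 3 (0.50 as log2 fold change, interval -0.22 to 1.23, and 0.071 with it left out). For both, knockout heart 3 was far above the rest and the other 2 knockout hearts were near the controls. Mrps14, the homologue of bacterial S14, was at 22.7, 15.9 and 22.5 CPM over control and 19.5, 26.7 and 39.5 CPM over knockout hearts 1, 2 and 3 (0.49 as log2 fold change, interval -0.15 to 1.12, and 0.18 with knockout library 3 left out). Mrps22, particular to mitochondria, was at 4.45, 3.33 and 5.51 CPM and 3.13, 5.76 and 8.12 CPM in the same order (0.35 as log2 fold change, interval -0.46 to 1.16, and -0.014 with knockout library 3 left out). Mrps36, the member outside the ribosome, was at 16.99, 10.8 and 19.3 CPM and 14.2, 21.1 and 30.8 CPM (0.49 as log2 fold change, interval -0.24 to 1.21, and 0.16 with knockout library 3 left out). Its processed pseudogenes Mrps36-ps1 and Mrps36-ps2 held 39 to 133 and 9 to 57.5 estimated counts per library, so its level is uncertain.

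The effect of knockout library 3 on single members is seen when both fits are set side by side. With all 6 hearts the log2 fold changes reached 1.01 for Mrpl53, 0.94 for Mrps10 and 0.77 for Mrpl36, and with knockout library 3 left out they were 0.32, 0.48 and 0.36. The number of members at an unadjusted edgeR p below 0.05 was 4 with all hearts, 0 with knockout library 3 left out, 0 without control library 1 or 2, and 24 without knockout library 1. Those 24 are 30.8% of the members, all higher in knockout, where 12.7% of all tested genes reached that p in either direction and 7.52% in the higher direction. For the fits with 0 members the share of all genes was 3.86% without knockout library 3, 2.8% without control library 1 and 1.46% without control library 2. None of these fits gave a member an edgeR adjusted p below 0.05. With no filter on low values edgeR called 2 members, Mrps10 and Mrpl53, among 133 of 33251 genes (0.4%). In knockout heart 3 itself 14 members were at least 1 log2 unit above their control mean, up to 1.86 for Mrpl53, as were 5.65% of all tested genes, and 12 members were below it.

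**Figure D4:**
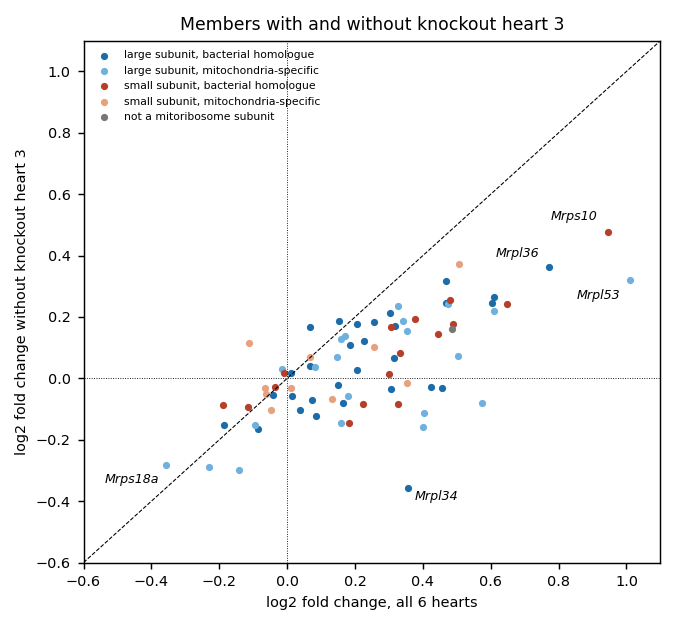
Log2 fold change of each member with all 6 hearts (horizontal axis) and without knockout heart 3 (vertical axis), with the line of equal values dashed. The median moves from 0.21 to 0.033.

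Gene length moved with the shift in knockout heart 3. By exon length in GENCODE M21, which covered 99.73% of tested protein-coding genes, the members were short, with a median of 2394 bases against 4645. In knockout heart 3 the median difference from the control mean went down with length among the other protein-coding genes, from 0.49 for 236 genes under 1000 bases to -0.13 for 5279 genes of 5000 bases and over. The members ran from 0.84 for 9 genes to 0.33 for 14 genes over the same classes, above the other genes in each of the 6 classes. In knockout heart 2 the members were above the other genes in each class, from 0.16 to 0.40 against -0.066 to 0.16. In knockout heart 1 they were below them in each class, from -0.22 to -0.11 against -0.12 to 0.024. These medians are descriptions, and the part of length, of mitochondrial rRNA and of Malat1 in the members' values was not tested.

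**Figure D5:**
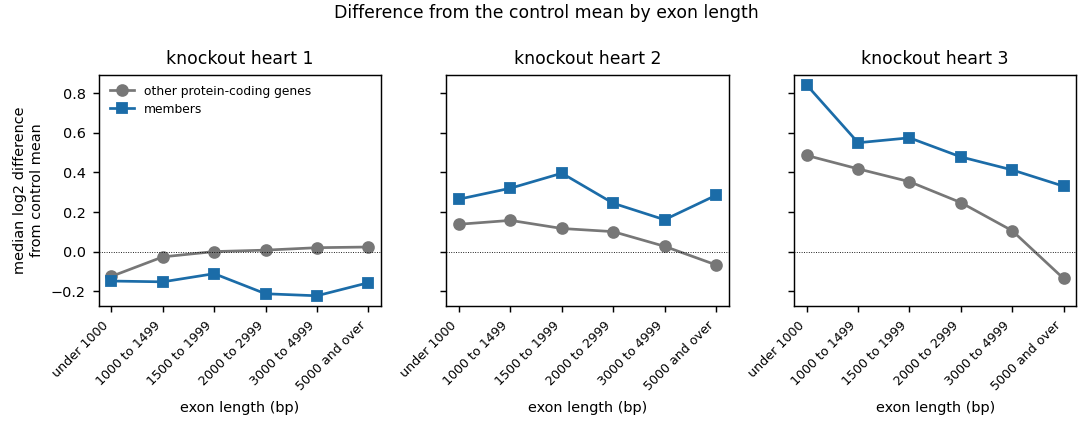
Median difference from the control mean, as log2(normalised CPM + 0.5), by class of exon length, for the members (squares) and the other tested protein-coding genes (circles) in each knockout heart. The members lie above the other genes in knockout hearts 2 and 3 and below them in knockout heart 1.

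The mitoribosomal proteins that carry other names are Dap3, Ptcd3, Chchd1, Aurkaip1 and Gadd45gip1. All 5 had fold changes above 0, by a median of 0.27 on the log2 scale and of 0.049 with knockout library 3 left out. Chchd1 was at 60.1, 53.96 and 74.6 CPM across control hearts 1, 2 and 3, against 42.1, 81.9 and 123 CPM across knockout hearts 1, 2 and 3 (0.39 as log2 fold change, interval -0.41 to 1.18, and -0.022 with knockout library 3 left out), with knockout heart 1 lowest and knockout heart 3 highest. Ptcd3, which binds RNA near the entry of the mRNA, averaged 32.5 ± 5.79 CPM over the controls and 42.7 ± 11.7 CPM over the knockouts (SD, n = 3 each; 0.39 as log2 fold change, and 0.16 with knockout library 3 left out). Gadd45gip1 had all knockout values above the controls, barely so for knockout heart 3, at 33.2, 25.8 and 32.6 CPM over control and 38.5, 38.6 and 33.2 CPM over knockout hearts 1, 2 and 3 (0.27 as log2 fold change, interval -0.15 to 0.68). Dap3, the GTP-binding protein of the small subunit, averaged 71.5 ± 5.44 CPM over the controls and 75.4 ± 13.05 CPM over the knockouts (0.077 as log2 fold change) and Aurkaip1 at 33.3 ± 5.77 CPM over the controls and 39.4 ± 10.6 CPM over the knockouts (0.24 as log2 fold change, and 0.040 with knockout library 3 left out).

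The wider machinery of mitochondrial translation gave no call by edgeR adjusted over all genes. Of 27 genes of mitoribosome assembly and rRNA modification 16 lay above 0 (median 0.055, and -0.034 with knockout library 3 left out), and the 2 of smallest p were Tfb1m and Mettl15. Tfb1m, which methylates the small-subunit rRNA, averaged 0.909 ± 0.190 CPM over the controls and 1.55 ± 0.303 CPM over the knockouts (SD, n = 3 each). Before TMM scaling its CPM reached 1 in all 3 knockout and 0 of the 3 control libraries, so it entered the test only through the group where it is high, and its fold change is given with no test (0.78 on the log2 scale). Mettl15, which methylates the same rRNA, averaged 2.60 ± 0.850 CPM over the controls and 4.28 ± 2.00 CPM over the knockouts (0.71 as log2 fold change, and 0.24 with knockout library 3 left out). Of 16 translation factors 8 lay above 0 (median -0.0035), and 10 with knockout library 3 left out (median 0.034). Tufm, the elongation factor that delivers tRNA, was at 44.2, 51.4 and 50.5 CPM and 26.6, 48.5 and 28.5 CPM in the same order, with knockout heart 2 at the control level (-0.50 as log2 fold change, interval -1.07 to 0.076, and -0.83 with knockout library 2 left out), and Mtrf1, a release factor, at 2.75 ± 0.734 CPM over the controls and 4.87 ± 2.93 CPM over the knockouts (0.82 as log2 fold change, and 0.25 with knockout library 3 left out). Of 17 mitochondrial aminoacyl-tRNA synthetases 7 lay above 0 (median -0.028, and -0.067 with knockout library 3 left out), with Yars2 at 4.13 ± 0.721 CPM over the controls and 6.08 ± 1.68 CPM over the knockouts (0.55 as log2 fold change, and 0.32 with that library left out) and Sars2 at 2.62 ± 0.662 CPM over the controls and 1.82 ± 0.458 CPM over the knockouts (-0.53 as log2 fold change, and -0.36 with knockout library 1 left out). Sars2 shares its promoter region with the member Mrps12, their starts lying 147 bases apart on opposite strands, and Mrps12 averaged 21.7 ± 4.28 CPM over the controls and 26.8 ± 11.03 CPM over the knockouts (0.31 as log2 fold change, interval -0.44 to 1.05, and 0.17 with knockout library 3 left out).

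Among 13 measured genes of mitochondrial transcription and mRNA stability 10 were above 0, by a median log2 fold change of 0.24 and of 0.059 with knockout library 3 left out. Tfam, which packages mitochondrial DNA and starts its transcription, was at 6.55, 5.91 and 6.70 CPM across control hearts 1, 2 and 3, against 8.56, 8.04 and 14.9 CPM across knockout hearts 1, 2 and 3. All knockout values were above all control values. Its log2 fold change of 0.72 (95% interval 0.11 to 1.33) had an unadjusted edgeR p of 0.0252, and was 0.38 with knockout library 3 left out. Tefm, the elongation factor of mitochondrial transcription, averaged 8.15 ± 1.94 CPM over the controls and 13.2 ± 5.56 CPM over the knockouts (SD, n = 3 each; 0.69 as log2 fold change, and 0.28 with knockout library 3 left out). Of 10 regulators of mitochondrial biogenesis 6 lay above 0 (median 0.040), and 4 with knockout library 3 left out (median -0.060). The transcription factor Myc was at 1.86, 2.96 and 2.45 CPM over control and 5.91, 3.79 and 2.78 CPM over knockout hearts 1, 2 and 3 (0.78 as log2 fold change, interval 0.0061 to 1.55, unadjusted edgeR p of 0.0486), and its fold change was 0.43 with knockout library 1 left out. The coactivator Ppargc1b averaged 45.5 ± 8.46 CPM over the controls and 33.8 ± 5.04 CPM over the knockouts (-0.43 as log2 fold change, interval -0.90 to 0.041, and -0.28 with control library 1 left out). All of its knockout values were below all of its control values. Of all tested genes 5.82% were separated in this way, and 6.26% in the higher direction, as Tfam was.

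The mRNAs that the mitoribosome translates had fold changes of the opposite sign to those of most member genes, with overlap between the groups. All 13 mitochondrially encoded mRNAs had fold changes below 0 (median -0.28), as had 6707 of 13717 tested genes. With knockout library 3 left out 12 of 13 were below 0 (median -0.22), and 7063 of 13717 tested genes. The summed level of the 13 mRNAs was 235464, 345091 and 233438 CPM across control hearts 1, 2 and 3. It was 202908, 303498 and 205993 CPM across knockout hearts 1, 2 and 3, with knockout heart 2 above control hearts 1 and 3. Control heart 2 was the highest of all hearts, and control hearts 1 and 3 lay within the range of the knockouts. The lower summed level of the knockouts thus rests on control heart 2. The median of the 13 mRNAs with control library 2 left out was not taken. They come from the same mitochondrial DNA, so they do not count as 13 independent genes. mt-Nd6, a subunit of complex I and the mRNA of the other DNA strand, was at 28.2, 109 and 54.3 CPM across control hearts 1, 2 and 3, against 30.7, 47.3 and 9.34 CPM across knockout hearts 1, 2 and 3. Control heart 2 was highest and knockout heart 3 lowest, and the values overlapped (-1.14 as log2 fold change, interval -2.51 to 0.24). That value was -0.52 with control library 2 left out, -0.71 with knockout library 3 left out and -1.69 with knockout library 2 left out. mt-Atp8, a subunit of ATP synthase, was at 70.2, 108 and 67.7 CPM and 52.1, 71.2 and 47.6 CPM in the same order (-0.53 as log2 fold change, interval -1.10 to 0.047, and -0.29 with control library 2 left out).

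Cytosolic ribosomal protein genes, chosen by symbol (87 rows, 85 tested), are set beside the members as the other ribosome of the cell. Their median log2 fold change was 0.25 with 78 of 85 above 0, and 0.046 with 50 of 85 with knockout library 3 left out. By heart their median difference from the control mean was -0.0043, 0.075 and 0.58 in knockout hearts 1, 2 and 3, and that of the mitoribosomal members -0.16, 0.29 and 0.52. Both were highest in knockout heart 3. In control heart 3 the cytosolic genes stood at 0.049 and the mitoribosomal members at 0.22. The difference between the lists was not tested.

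How reads are assigned limits some members. In GENCODE M21 the exons of 28 members overlap an exon of another gene on the opposite strand and those of 8 members an exon on the same strand, and 45 members have neither. The sources used here do not say that strand was kept, so the reads of such pairs cannot be told apart. Among them are Mrps11 and Mrpl46, which overlap each other, with Mrps11 at 4.62 ± 1.38 CPM over the controls and 6.31 ± 2.01 CPM over the knockouts (SD, n = 3 each) and Mrpl46 at 14.3 ± 1.41 CPM over the controls and 16.1 ± 1.08 CPM over the knockouts. In 38 members a deposited count held a fraction of a read in at least 1 library. The pseudogene Mrpl23-ps1, with 284 to 586 estimated counts per library, makes the level of Mrpl23 uncertain, at 32.5 ± 6.29 CPM over the controls and 31.6 ± 0.520 CPM over the knockouts.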

How the data were processed

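Heart RNA of 3 control and 3 knockout mice was analysed, 1 library per heart, grouped by the labels. Per the labels' protocols, reverse transcription used anchored oligo(dT) primers, and tagmentation and PCR followed. Per the submitters' processing notes, the build was mm39 and the named tools are edgeR 4.0.16, Subread 2.1.1 with featureCounts, STAR 2.7.11 and SAMtools 1.22.1, without their roles. The authors deposited estimated counts for each gene, not all of them whole. The authors' deposited CPM is the same count scaled to the library total, with no further factor. Counts were rounded to whole numbers and a gene was tested if its CPM reached 1 in 3 or more libraries, which 13717 genes did, all 78 members among them. Groups were compared by the quasi-likelihood test of edgeR 4.0.16 (in R 4.3.3) with TMM scaling, two-sided, Benjamini-Hochberg adjusted over all tested genes with a threshold of 0.05. Standard errors came from the F statistic and 95% intervals from the t distribution. With 3 against 3 hearts an exact permutation test cannot go below 0.1. Scripts were tested on simulated data. The labels name separate hearts, every pair of libraries differed by more than sampling noise, and the p-values measure the spread between these 6 hearts.

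Members of the ribosome were assigned to a subunit from general knowledge. The members, gene lists and rules were chosen with earlier results of these data known. The named members were the 8 of smallest p, the 3 of highest and 3 of lowest fold change, the 3 of widest and 3 of narrowest control spread, and 15 chosen for their role. Mrpl21, Mrpl23, Mrpl46, Mrps11 and Mrps12 were named after their values were seen. The rule's part on level per kilobase was not used, as the table gives no gene length. Of the other lists the 2 genes of smallest p were named, and all 5 mitoribosomal proteins of other names. Alternatives were DESeq2 1.42.0, limma-trend (limma 3.58.1) with pseudocounts of 0.5 and 1, other scalings, other filters, a replicate block and leaving out each library. Promoter sequences and exon lengths come from RefSeq and GENCODE M21 on GRCm38, matched by symbol and gene ID. No coordinates were converted between builds.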

Additional observations from a re-analysis of the deposited data

How the results depend on the processing

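The median of the 78 members stayed above 0 in every alternative run, its lowest value being 0.033 (knockout library 3 left out) and its highest 0.41 (knockout library 1 left out). With library sizes as the only scaling it was 0.36, where the median of all genes moved to 0.17. The count of genes called over all tested genes was 0 in the main test, 15 in DESeq2, 1 in limma-trend with a pseudocount of 1, 133 of 33251 without a filter on low values, 5 with a replicate block, and 0 to 3 with a library left out. Members called were 2 without the filter, Mrps10 and Mrpl53, and 0 in every other alternative. Members at an unadjusted p below 0.05 were 4 in the main test (5.14% of all genes in either direction). They were 2 in limma-trend with a pseudocount of 0.5 (4.32% of all genes) or 1 (4.39%). They were also 2 with upper-quartile factors (5.01%) and with CPM of at least 5 (4.67%). Without a filter there were 13 (16.7% of the members), all higher in knockout. Of all genes 7.48% reached that p in either direction and 3.48% in the higher direction. With the replicate block there were 8 (10.3% of the members), all higher, against 13.2% and 5.64% of all genes. With a library left out there were 0 to 24 (1.46% to 12.7% of all genes in either direction). The same-numbered hearts are not said to be pairs, and their deviations correlated at -0.113, 0.445 and 0.583, so the block was not used. In that check 3 of the 6 libraries correlated best with their own number. The sign of Mrps5 was reversed in limma-trend (0.11 with a pseudocount of 0.5 and 0.11 with 1) and with library sizes only (0.13), that of Mrps18b with library sizes only (0.00358), and that of Mrpl12 with upper-quartile factors (-0.027), CPM of at least 5 (-0.025) and the replicate block (-0.027). Leaving out a library reversed the sign of 13 of the named genes, whose log2 fold changes then ran from -0.25 to 0.22 for Mrpl12, -0.046 to 0.25 for Mrpl45, -0.31 to 0.13 for Mrpl58, -0.15 to 0.046 for Mrps5, -0.049 to 0.21 for Dap3, -0.36 to 0.72 for Mrpl34, -0.16 to 0.67 for Mrpl39, -0.45 to 0.12 for Mrps18b, -0.082 to 0.61 for Mrps18c, -0.028 to 0.69 for Mrpl3, -0.014 to 0.64 for Mrps22, -0.057 to 0.38 for Mrps30 and -0.022 to 0.70 for Chchd1. The causes were not tested.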
